A study of Mus musculus with 4 samples.

Results

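Matrix-binding integrins are the adhesion receptors through which epithelial cells hold collagen, laminin and fibronectin. The 10 genes described here were found by symbol in the deposited matrix of 24444 genes: the alpha subunits Itga1, Itga2, Itga3, Itga5 and Itgav, and the beta subunits Itgb1, Itgb3, Itgb5, Itgb6 and Itgb8. All 10 were present. Polyadenylated RNA was measured in cultured oesophageal cells of the C57BL/6J mouse strain, with 2 libraries labelled Nrf2-WT, with no treatment or cassette, and 2 labelled Nrf2-HET, from CRISPR/Cas9 microinjection with an Nfe2l2-E79Q cassette. Nfe2l2 encodes NRF2, the transcription factor of the antioxidant response, and E79Q is a tumour-derived substitution in it. The 2 groups are called wild type and E79Q below. Every column name also carries the word SV40, which the labels do not explain. The labels do not say whether libraries of a genotype came from separate animals, cultures or lines, or the age of the animals, so the p-values measure only the spread between these libraries, which may be technical.

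An integrin is a pair of 1 alpha and 1 beta subunit that spans the membrane. The head binds the matrix, and the short tail of the beta subunit binds talin and kindlin, which link it to actin. Itgb1 pairs with Itga1 or Itga2 to bind collagen, with Itga3 to bind laminin-332, and with Itga5 to bind fibronectin. Itgav pairs with Itgb1, Itgb3, Itgb5, Itgb6 or Itgb8, and these receptors recognise the RGD tripeptide of fibronectin, vitronectin and latent TGF-beta. In stratified epithelium, basal cells carry the collagen and laminin receptors, and Itgb6 is known as an epithelial subunit that is low at rest and rises in wounds and carcinoma. The pair of Itgav with Itgb6 or Itgb8 activates latent TGF-beta.

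Values are the authors' variance-stabilised values on a log2-like scale, on which a gene without reads lies at 6.98. Differences are E79Q minus wild type on that scale over 2 replicate pairs, ± SE. The SE is moderated: it draws mostly on the spread pooled over all genes tested, not on the pairs of that gene alone. Estimated depth was 12.6 to 14.2 M reads for wild type and 13.0 to 15.2 M for E79Q. The deposited values had been centred on the replicate number, so that the wild-type and E79Q values of pair 1 have the same sum as those of pair 2, and the rise of one library above its group mirrors the fall of its partner. Squamous epithelial markers were strongly detected, with Krt5, a basal keratin, at 15.79 to 15.85, and the summed normalised count of 12 such markers was 164809 and 158035 in wild type and 160583 and 168185 in E79Q. Single markers moved within that sum, with 3 called higher, Krt6a, Krt13 and Dsg3 (0.67, 0.49 and 0.74), and 4 called lower, Krt15, Sox2, Epcam and Krt14 (-0.58, -0.45, -0.22 and -0.13). The libraries also differed in Xist, the RNA of the inactive X chromosome, at 11.99 and 12.17 in wild type and 7.30 and 7.12 in E79Q, while the Y-linked gene Ddx3y was at 9.65 and 9.51 and at 10.05 and 10.19. Genotype and the sex makeup of the cultures cannot be told apart. In bulk RNA, fewer cells of a type and less RNA per cell cannot be told apart either.

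Of the 10 members, 1 was higher in E79Q cells (Itga3) and 2 were lower (Itgb5 and Itgb6). A further 4 were tested and not called (Itga2, Itga5, Itgav and Itgb1). Itga1, Itgb3 and Itgb8 lay under the filter on low values and were not tested. Calls were made at a Benjamini-Hochberg adjusted p below 0.05 in limma, a linear model that pools the spread over genes. By this rule 40.4% of all 10857 genes tested were called, 21.5% higher and 18.9% lower. For the members the share was 3 of 7, close to that background. The median difference was -0.07 over the 7 members tested and 0.01 over all genes tested, and the median absolute difference was 0.15 against 0.12.

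The 250 bases upstream of the transcription start are shown for the members that were called, because these are the genes whose RNA level differed beyond the spread. They come from RefSeq on build GRCm38.p6, 5' to 3' along the gene's own strand. Capitals mark matches, on either strand, to the core of the antioxidant response element that NRF2 binds (TGACNNNGC), to the AP-1 motif (TGANTCA) and to the GC box bound by SP1 (GGGCGG). Itgb6 is at chr2:60722604-60722853 (minus strand, upstream start of 2 listed), Itgb5 at chr16:33829415-33829664 (plus strand) and Itga3 at chr11:95076715-95076964 (minus strand, upstream start of 2 listed).
Itgb6: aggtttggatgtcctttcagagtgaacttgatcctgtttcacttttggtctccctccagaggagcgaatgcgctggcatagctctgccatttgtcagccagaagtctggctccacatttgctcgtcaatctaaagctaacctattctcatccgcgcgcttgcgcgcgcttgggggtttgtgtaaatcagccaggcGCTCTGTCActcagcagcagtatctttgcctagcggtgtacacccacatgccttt
Itgb5: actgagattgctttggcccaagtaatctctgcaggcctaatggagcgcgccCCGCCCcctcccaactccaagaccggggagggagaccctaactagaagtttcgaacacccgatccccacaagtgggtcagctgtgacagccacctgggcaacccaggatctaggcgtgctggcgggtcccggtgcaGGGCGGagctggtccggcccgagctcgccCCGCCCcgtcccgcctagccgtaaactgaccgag
Itga3: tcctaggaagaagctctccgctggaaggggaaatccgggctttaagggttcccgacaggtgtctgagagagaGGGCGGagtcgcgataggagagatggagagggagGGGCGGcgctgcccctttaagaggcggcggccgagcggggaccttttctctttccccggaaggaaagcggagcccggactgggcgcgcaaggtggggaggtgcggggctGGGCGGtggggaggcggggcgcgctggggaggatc

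The Itgb6 window holds 1 match to the NRF2 core, on the opposite strand, whose first printed base lies 55 bases before the start. The printed Itgb5 and Itga3 windows each hold 3 GC boxes and no match to the NRF2 core. At the other listed start, not printed, Itgb6 has no match to the NRF2 core. That of Itga3 has 1 GC box and no match to the core. Windows were found for 9 of the 10 members, all but Itgb3, and the 11 windows gave 2 with the NRF2 core, in Itgb6 and in Itgb1, which was not called. Over all 32851 windows of the same length, 10.2% hold the NRF2 core, 6.75% the AP-1 motif and 32.7% a GC box. AP-1 was matched in 0 and a GC box in 5 of the members' windows. No motif overlapped another in the windows printed. A match of letters is a description of these windows and does not show binding.

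The levels of the subunits were compared per exon length, as approximate normalised counts per kb of merged exon in GENCODE M21 (GRCm38), whose gene models may differ from those used for counting. Itgb1 was highest, with 3302 and 3167 per kb in wild type and 3006 and 3134 in E79Q, followed by Itga3 with 1417 and 1348 and with 1540.2 and 1619. Itgb5, Itgav, Itgb6 and Itga5 followed, between 149.6 and 487 per kb over all libraries. Their order in wild type was Itgb5 (468 and 487), Itgav (347 and 323), Itgb6 (238 in both) and Itga5 (154 and 149.6), with no overlap between neighbours. In E79Q the ranges of Itgb5 (369.8 and 355) and Itgav (332 and 358) overlapped, so their order there does not exceed the spread. The spread meant here is what remained after the centring by replicate number, so it can understate that between libraries. Itga2 was lower, at 17.2 to 22.6 per kb, and Itgb3, Itgb8 and Itga1 lay at 2.66 per kb or less.

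**Figure D1:**
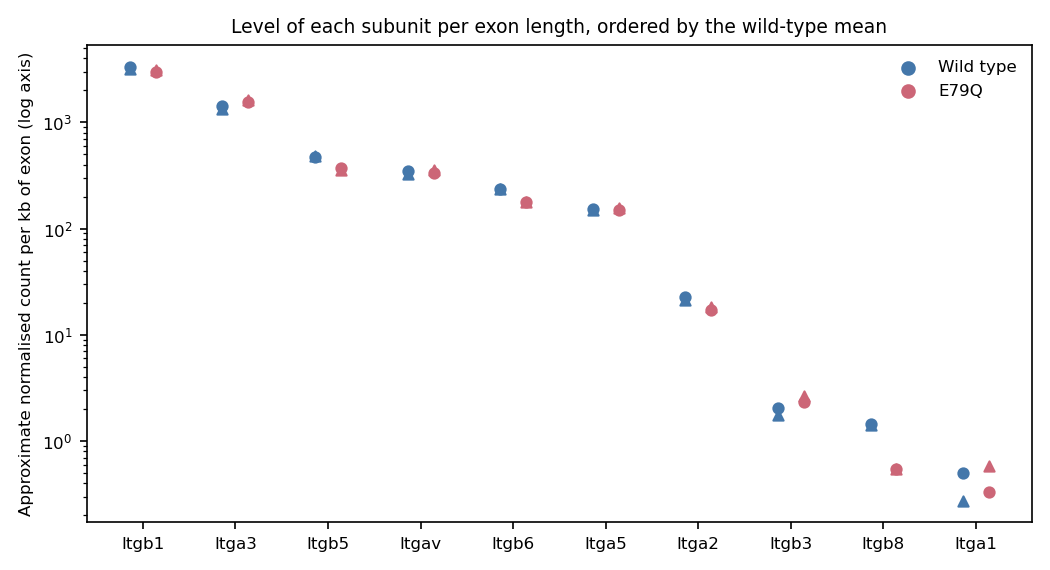
Approximate normalised count per kb of exon (log axis) of the 10 subunits, in each wild-type (blue) and E79Q (red) library, with circles for replicate 1 and triangles for replicate 2. Itgb1 and Itga3 are highest, 4 subunits lie between 149.6 and 487 per kb, and Itgb3, Itgb8 and Itga1 are lowest.

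The RGD-binding beta subunits that were called both lay lower in E79Q. Itgb6, the epithelial partner of Itgav that activates latent TGF-beta, had 10.92 in both libraries of wild type and 10.57 in both of E79Q. The groups did not overlap, and the pairs differed by -0.36 and -0.35. The difference was -0.35 ± 0.05 (limma adjusted p = 4.72e-05, 95% interval -0.46 to -0.25), and the mean normalised count was 1693 in wild type and 1274 in E79Q, a ratio of 0.753. Itgb5, the partner of Itgav in a vitronectin receptor, was at 10.90 and 10.95 in wild type and 10.60 and 10.55 in E79Q. Both E79Q libraries were again below both wild-type libraries. The difference was -0.34 ± 0.05 (limma adjusted p = 8.27e-05, 95% interval -0.45 to -0.23), with a mean normalised count of 1696 against 1288, a ratio of 0.759.

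The alpha subunit shared by these receptors was not called. Itgav had approximate normalised counts of 3731 and 3466 in wild type and 3571 and 3844 in E79Q, so the groups overlapped, and on the deposited scale the pairs moved in opposite directions, by -0.06 and 0.14. Its difference was 0.04 ± 0.05 (limma adjusted p = 0.570). The 95% interval of Itgav, -0.07 to 0.15, does not reach the differences measured for Itgb5 and Itgb6, although the contrast between the genes was not itself tested. On the reference annotation 5.9% of the exon bases of Itgav overlap a gene on the opposite strand, Gm13684, and no source here gives the strand setting of the counting.

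Itgb8 and Itgb3 were at the edge of detection. By solving the deposited values for whole reads, Itgb8, whose pair with Itgav also activates latent TGF-beta, was estimated at 20 and 12 reads for wild type and 9 and 4 for E79Q. Every E79Q library had fewer reads than every wild-type library, 13 against 32 in sum. On the deposited scale Itgb8 was 7.49 and 7.49 against 7.29 and 7.29, a difference of -0.20 that did not pass when the filter on low values was dropped (limma adjusted p = 0.0949). Itgb3, the beta subunit of a vitronectin receptor and of the platelet fibrinogen receptor, was estimated at 12 and 10 reads in wild type and 15 and 15 in E79Q. Its difference on the deposited scale, 0.06 without the filter, was not called (limma adjusted p = 0.612). Neither gene passed the test, which does not show that their levels were alike.

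**Figure D2:**
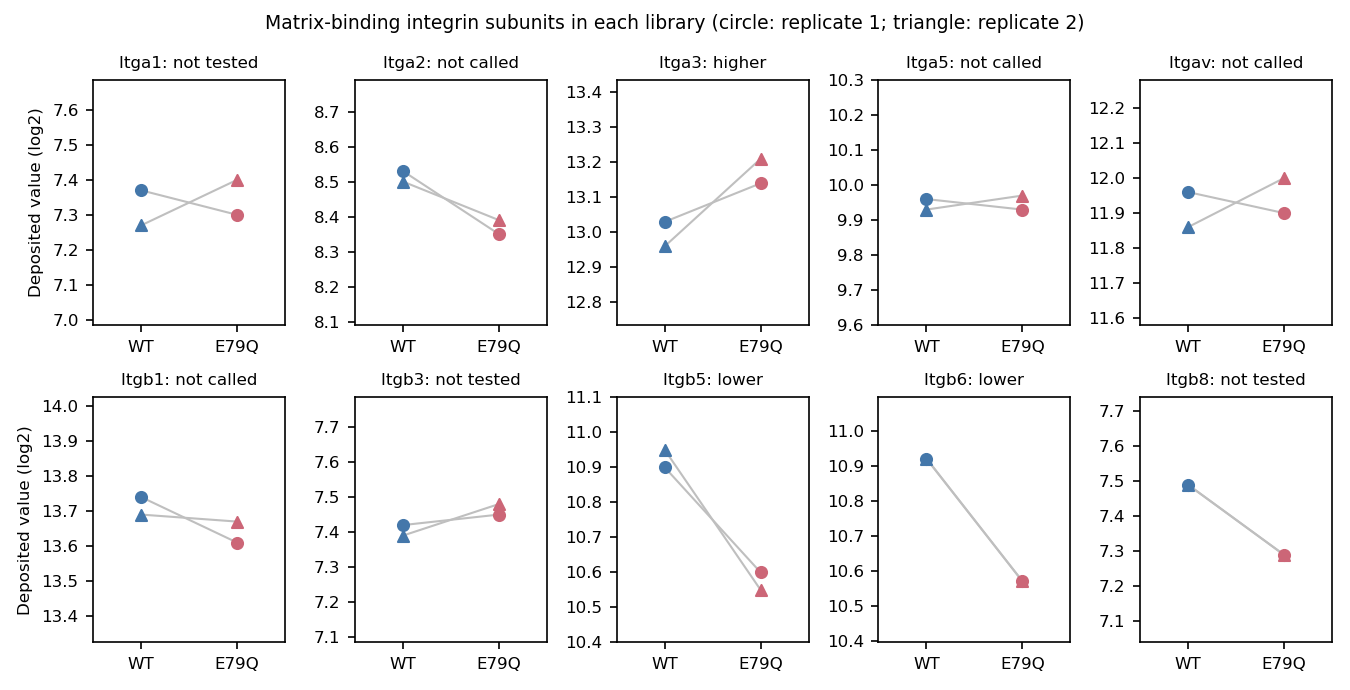
Deposited log2 value of each of the 10 subunits in the wild-type (blue, WT) and E79Q (red) libraries, with a grey line joining the libraries of a replicate pair; every panel spans the same height. Itga2, Itgb1, Itgb5, Itgb6 and, near the floor, Itgb8 fall in both pairs. Itga3 and, near the floor, Itgb3 rise in both. In Itga1, Itga5 and Itgav the pairs move in opposite directions.

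The laminin-binding alpha subunit was higher in E79Q. Itga3, the partner of Itgb1 in the receptor for laminin-332, was at 13.03 and 12.96 in wild type and 13.14 and 13.21 in E79Q. The groups did not overlap, and the pairs differed by 0.12 and 0.26. The difference was 0.19 ± 0.05 (limma adjusted p = 0.00499, 95% interval 0.09 to 0.29), or a mean normalised count of 7895 in wild type and 9019.9 in E79Q (ratio 1.14). It is a small change in an abundant transcript.

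The common beta subunit and the fibronectin-binding alpha subunit were not called. Itgb1 was at 13.74 and 13.69 in wild type and 13.61 and 13.67 in E79Q, lower in both pairs without overlap, but the pairs differed by -0.13 and -0.01. Its difference was -0.07 ± 0.05 (limma adjusted p = 0.211, 95% interval -0.17 to 0.02). Itgb1 was called lower after quantile normalization (-0.10, limma adjusted p = 0.0103). Its difference was also -0.10 without replicate 2 of wild type or of E79Q, in fits that drop the replicate block too. Itga5, which with Itgb1 forms the classical fibronectin receptor, was at 9.96 and 9.93 in wild type and 9.93 and 9.97 in E79Q. Its groups overlapped and its difference was 0.01 ± 0.06 (limma adjusted p = 0.939, 95% interval -0.11 to 0.13).

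The collagen-binding alpha subunits Itga1 and Itga2 had the lowest levels per kb of the 5 alpha subunits among the members. Itga2 was tested and not called, and Itga1 was not tested. Itga2 was at 8.53 and 8.50 in wild type and 8.35 and 8.39 in E79Q, lower in both pairs and without overlap. Its difference was -0.15 ± 0.07 (limma adjusted p = 0.105, 95% interval -0.30 to 0.00), from a mean normalised count of 157 to 127. Itga2 was called lower in the fit without the replicate block (limma adjusted p = 0.0194). Its difference was -0.17 without replicate 2 of wild type or of E79Q, in fits that drop the block too. Itga1 was estimated at 11 and 4 reads in wild type and 8 and 9 in E79Q, with overlapping groups. Its difference without the filter on low values was 0.03 (limma adjusted p = 0.832). A same-strand gene model, Gm49395, shares 3.68% of the exon bases of Itga1.

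In 7 of the 10 members, and in 5 of the 7 tested, the 2 groups did not overlap. Over all genes tested that held for 79.2%, so the members lie near the background on this measure too.

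The remaining 16 integrin subunits of the mouse give the setting. Of these, 4 were tested and all 4 were called, against a background of 40.4%: Itga6, Itgb4 and Itgb7 higher and Itga7 lower. Itga6 and Itgb4, which together form the laminin receptor of the hemidesmosome, were at 12.39 and 12.25 against 12.98 and 13.13 for Itga6, and at 12.94 and 12.87 against 13.16 and 13.23 for Itgb4. The Itgb4 difference was 0.28 ± 0.05 (limma adjusted p = 0.000192), from a mean normalised count of 7447 to 9106, and the ratio of normalised counts for Itga6 was 1.69. Itga7, a further laminin-binding partner of Itgb1, fell by 0.62 ± 0.07 (limma adjusted p = 4.61e-06), from 8.75 and 8.80 to 8.18 and 8.13. Itgb7, known from leukocytes, was at 7.62 and 7.65 and at 8.13 and 8.10 (0.47 ± 0.07, limma adjusted p = 0.000116). It passed the filter only through its E79Q libraries, so it had to differ to be tested. With the stricter filter on low values only 2 of these subunits were called, Itga6 and Itgb4, since Itga7 and Itgb7 were then not tested. Of 9 leukocyte markers 6 were at the floor in all libraries, among them Ptprc and Cd3e. Itgal and Itgad, which are alpha chains of leukocyte integrins, were at the floor too. Untested Itga4, Itgae and Itgb2 had mean normalised counts of 0.1, 3.79 and 5.35 in wild type and 1, 3.45 and 1.15 in E79Q. The sum of the leukocyte markers was 190.1 and 168 in wild type and 377 and 414 in E79Q, most of it from Cd68, a lysosomal protein (8.63 and 8.54 against 9.22 and 9.30). The part of this sum in the Itgb7 value was not tested.

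**Figure D3:**
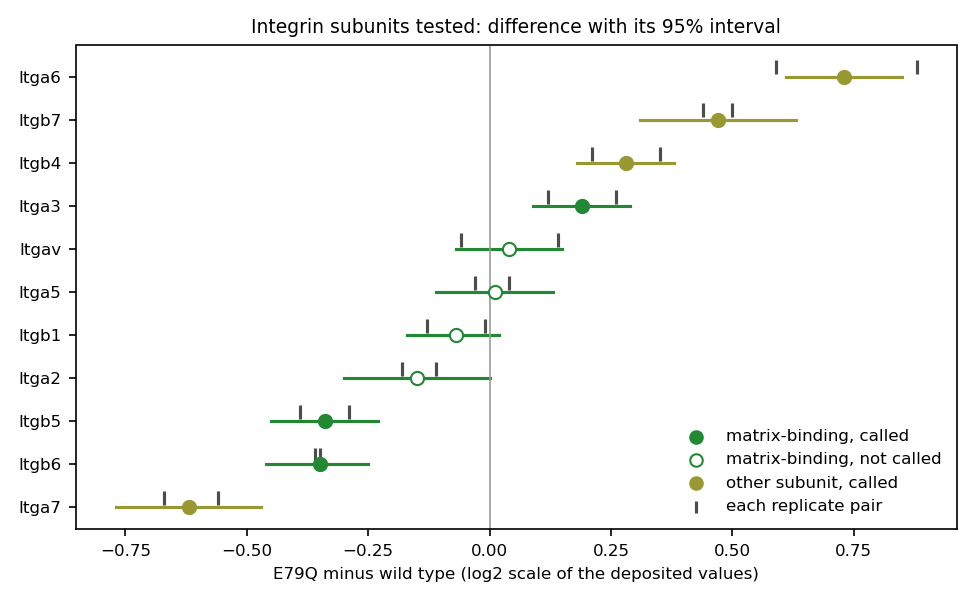
Difference between E79Q and wild type (log2 scale of the deposited values) for the 11 integrin subunits tested, with the 95% interval from limma as a line, each replicate pair as a tick, and filled points for called genes. Itga6, Itgb7, Itgb4 and Itga3 lie above 0, and Itgb5, Itgb6 and Itga7 below it.

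The genes of the matrix ligands are described by the type of receptor that binds them. Among laminin chains, 3 were called higher and 1 lower of 7 tested, against 21.5% higher and 18.9% lower over all genes, with a median of 0.06. Lamb3, the beta chain of laminin-332, was at 13.48 and 13.42 in wild type and 13.76 and 13.82 in E79Q (0.34 ± 0.05, limma adjusted p = 2.76e-05), and Lamc1, a widely used gamma chain, rose by 0.30 ± 0.05 (limma adjusted p = 9.56e-05). Lama3, the alpha chain of laminin-332, was also called higher (0.17). Lamb2 fell by 0.26 ± 0.05.

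Ligands of the RGD-binding and related receptors had 6 called lower and 1 higher of 10 tested, with a median of -0.28, against 18.9% called lower over all genes. Fn1, fibronectin, the ligand of Itga5 with Itgb1 and of the Itgav receptors, had approximate normalised counts of 18025 and 19424 in wild type and 7753 and 7184 in E79Q, a ratio of 0.399. Tnc, tenascin C, went from 2082 and 2073 to 762 and 766, a ratio of 0.368. Thbs1, thrombospondin 1, went from 1955 and 1816 to 962 and 1042. Cyr61, a secreted RGD-independent ligand of Itgav receptors, Npnt and Fbn1 were the other genes called lower, and Fbn1 passed the filter only through wild type. Mfge8, an RGD protein that Itgav receptors bind, rose by 0.27 ± 0.05. Vtn, vitronectin, was at the floor in all 4 libraries.

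Of 10 collagen chains, 5 were tested, with 3 lower and 1 higher. The 3 lower, Col5a1, Col1a1 and Col6a1, passed the filter through their wild-type libraries only, so their share is no measure of the list. Without the filter on low values, 7 of the collagen chains were called in place of 4. Col1a1 had mean normalised counts of 319 in wild type and 40.8 in E79Q, and Col5a1 of 478 and 19.9. The basement membrane chain Col4a2 rose by 0.21 ± 0.05, and its partner Col4a1, at 12.34 and 12.38 against 12.35 and 12.32, was not called. Fibroblast markers were low throughout: 0 of 10 passed the filter, Lum and Dpt were at the floor in all libraries, and the summed normalised count was 155 and 136 in wild type and 95 and 105 in E79Q. Of these markers, Postn, Col1a2 and Col3a1 were lower in E79Q without overlap, and Dcn, Col6a3 and Thy1 were higher without overlap. Col1a2, Col3a1 and Col6a3 are also among the collagen chains, and Postn among the RGD-type ligands, so the sum is not separate from those lists. The part of the fibroblast markers in the collagen and fibronectin values was not tested.

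Genes of latent TGF-beta, the ligand that the Itgb6 and Itgb8 receptors activate, had 2 called higher and 2 lower of 6 tested, against 21.5% higher and 18.9% lower over all genes. Ltbp1, which anchors latent TGF-beta in the matrix, was at 10.12 and 10.16 in wild type and 9.36 and 9.33 in E79Q (-0.79 ± 0.06, limma adjusted p = 3.68e-08). Lrrc32, which holds latent TGF-beta at the cell surface, fell by 0.36 ± 0.08. Ltbp4 was higher, at 9.33 and 9.44 against 10.09 and 9.98 (0.65 ± 0.06, limma adjusted p = 9.40e-07), and Tgfb1 itself was at 10.25 and 10.21 against 10.38 and 10.42 (limma adjusted p = 0.0232).

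On the cytoplasmic side, the linkers between beta tails and actin had 12 called lower and 2 higher of 18 tested, with a median of -0.17. The 12 lower stand against a background of 18.9%. Fermt2, kindlin-2, which binds the beta tail beside talin, was at 10.08 and 10.07 in wild type and 9.64 and 9.65 in E79Q (-0.43 ± 0.06, limma adjusted p = 2.34e-05). Fermt1, the epithelial kindlin, was also called lower (-0.21). Ilk, integrin-linked kinase, a scaffold beside kindlin, fell by 0.34 ± 0.05 (limma adjusted p = 0.000100). Vcl, Actn1, Actn4, Zyx, Flna, Tns1, Tns2 and Tns3 were also called lower, by between 0.13 and 0.26. Talin itself was not called, with Tln1 at 12.42 and 12.41 against 12.33 and 12.34, nor was Tln2. Tns4 rose by 0.23 ± 0.07 and Lims1 by 0.18 ± 0.05. Neither kept its call without the replicate block (limma adjusted p = 0.114 for Tns4 and 0.0869 for Lims1), and Lims1 was also not called without the mean-variance trend (0.0503). Summed muscle markers moved with this group, at 982 and 1028 in wild type and 316 and 293 in E79Q, mostly through Acta2 (10.10 and 10.13 against 8.90 and 8.87), with the muscle myosins Myh1 and Myh2 at the floor. Tagln was also called lower, but it passed the filter only through wild type, so it had to differ to be tested. Cnn1, not tested, was lower without overlap. Myh11 and Des, near the floor and not tested, were higher without overlap, and the groups of Actg2 overlapped. The part of the muscle markers in the linker values was not tested.

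Adhesion kinases and scaffolds had 6 called lower and 3 higher of 19 tested, or 47.4% against the background of 40.4%, with a median of -0.03. Nedd9, a docking protein of the focal adhesion kinase, fell by 0.51 ± 0.05 (limma adjusted p = 1.26e-06), and Tgfb1i1, the paxillin relative Hic-5, by 0.53 ± 0.08 (limma adjusted p = 4.59e-05), the latter tested through its wild-type libraries only. Dock1 and Ptk2b rose by 0.22 ± 0.05 and 0.25 ± 0.06. Ptk2, the focal adhesion kinase, was among those called higher (10.61 and 10.64 against 10.78 and 10.75), and Pxn, paxillin, and Src were not called.

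Regulators of integrin activity and traffic had 3 called higher and 2 lower of 15 tested, or 33.3% against the background of 40.4%. Without the replicate block 8 were called. Rab5a and Rab25, small GTPases of endosomes, rose by 0.26 ± 0.05 and 0.21 ± 0.05. Rab11fip1, a recycling adaptor, fell by 0.30 ± 0.06, and Dab2, an adaptor for clathrin uptake, by 0.25 ± 0.07. The inhibitors Sharpin and Itgb1bp1 were not called.

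Membrane partners of integrins had 6 called higher and 1 lower of 12 tested, with a median of 0.08, against a background of 21.5% higher. Slc3a2, the CD98 heavy chain, which binds beta tails and also carries amino acid transporters, was at 12.85 and 12.79 in wild type and 13.35 and 13.42 in E79Q (0.56 ± 0.05, limma adjusted p = 1.18e-07). Plaur, the urokinase receptor, was at 9.89 and 9.56 and at 10.27 and 10.60. Plaur was not called with robust empirical Bayes (limma adjusted p = 0.155). Cd44, Cd82, Sdc4 and Cd9 were the other genes called higher, at 0.34, 0.30, 0.27 and 0.13. Sdc1, the main epithelial syndecan, fell by 0.26 ± 0.05, and Cd151, the tetraspanin that partners Itga3, was not called (11.02 and 11.08 against 11.00 and 10.94).

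**Figure D4:**
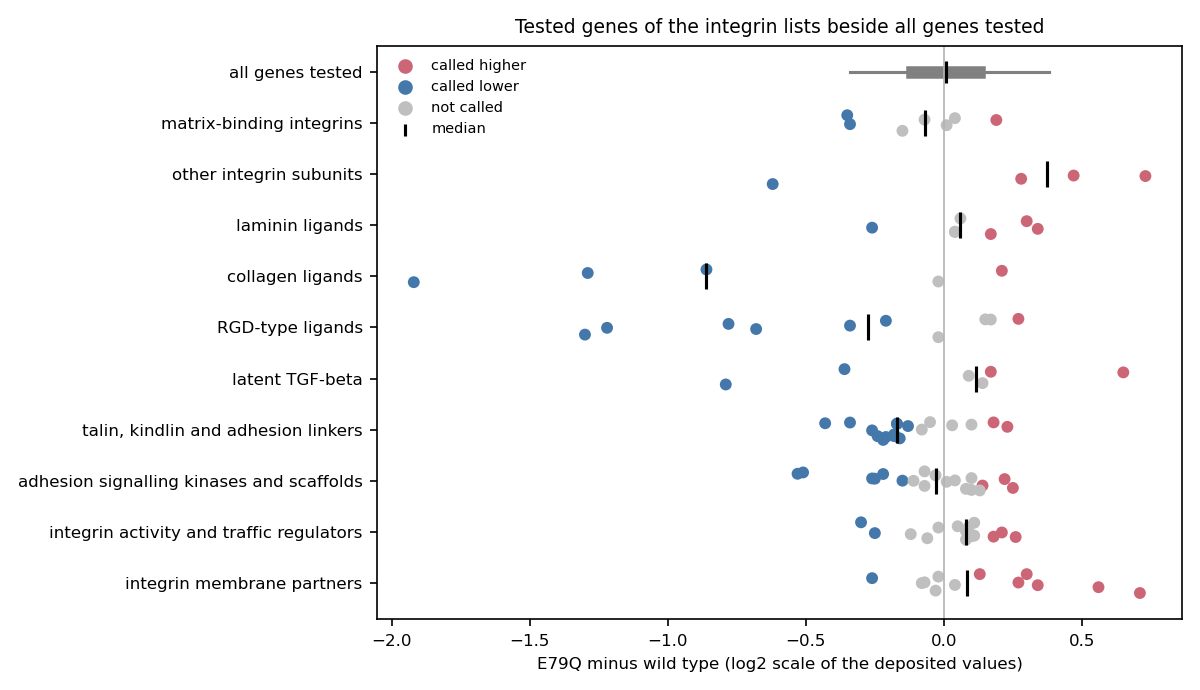
Difference between E79Q and wild type (log2 scale of the deposited values) of every tested gene in the 10 lists, with called genes in red (higher) and blue (lower), black ticks at the medians, and for all genes tested a thick bar from the 25th to the 75th percentile (-0.11 to 0.13) and a thin line from the 5th to the 95th (-0.34 to 0.38). The matrix-binding integrins sit close to the range of all genes, with Itgb5 and Itgb6 at its lower edge, and the linkers lie mostly below 0.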

How the data were processed

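Poly(A) RNA of 2 wild-type and 2 E79Q libraries was analysed. Groups and replicate numbers came from the sample titles, which match the column names. The series' design text names another cell line and gene and was not followed. Per the submitters' processing notes, the build was mm9 and the tools included DESeq2, DESeq 1.22.2, Salmon 0.11.3 and STAR 2.5.2b, with no role given. The authors deposited variance-stabilised log2 values. In each of 24444 genes the sums of pair 1 and pair 2 differ by at most 1.315e-13, so the replicate number had been removed within genes, a step no label records. The numbers pair the libraries for this reason.

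Genes were tested where 2 or more libraries exceeded the table's minimum (6.89726) by 1 or more. limma 3.58.1 in R 4.3.3 fitted genotype with a replicate block (1 residual degree of freedom, 14.59 prior), with a mean-variance trend and Benjamini-Hochberg adjustment. No exact permutation test of 2 against 2 libraries can give a p under 0.333. The fit was run on simulated data with the same centring, where with few genes changed the share of false calls exceeded the threshold and most small changes were missed. With 200 of 10857 genes changed, an average of 23.85 of 143.55 calls were false. Of changes of 0.2, 36.3% were recovered. In the deposited data 40.4% of the genes tested were called, so these simulated shares need not hold there.

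Approximate normalised counts invert the variance stabilisation from its floor, after the centring. Size factors came from genes with 1 read in 1 library (174 to 229 genes a library). Whole reads of Itga1, Itgb3 and Itgb8 are the pair offset at which all 4 libraries lay nearest to whole numbers (within 0.0039, against 0.041 or more for the next solution). This step was chosen after seeing the data. Intervals are 95%.

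Named are all members, every called integrin subunit, and, of each other list, the 2 largest called rises and falls without overlap. Nfe2l2 itself was not called (limma adjusted p = 0.154), and a substitution leaves its level no check of the labels. Other genes were named after their values were seen, and some genes of the lists are counted but not reported here by name. The members and lists were chosen with earlier results of these data known. Alternatives changed the block, filter, scaling, empirical Bayes step and libraries used. The fits that leave out a library also drop the replicate block.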

Additional observations from a re-analysis of the deposited data

How the results depend on the processing

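Itgb5, Itgb6 and Itga3 kept their direction and their call under every alternative run, with differences of -0.37 to -0.32, -0.38 to -0.35 and 0.15 to 0.22. The count of members called lower, 2 in the main result, ranged from 2 to 4 when 1 library was left out. Itga2 and Itgb1 were added without replicate 2 of wild type or of E79Q. Every fit with 1 library left out also drops the replicate block and leaves 1 library in a group. Calls added there cannot be credited to the omitted library alone. Members called higher stayed at 1 under each alternative. The libraries had been centred by pair, so leaving out either library of a pair gives nearly the same values. Directions of members that were never called turned: Itga5 to -0.01 with a common median, -0.02 after quantile normalization and -0.01 without replicate 2 of either genotype, and Itgav to -0.01 without replicate 2 of either genotype. With 1 library left out, Itga5 ranged from -0.01 to 0.02 and Itgav from -0.01 to 0.09. The cause was not tested.

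Without the replicate block, a fit that ignores the centring by pair, 6004 genes were called against 4388 with it, and the traffic regulators had 8 calls against 5. The traffic list ranged from 6 to 8 with 1 library left out, at 8 without replicate 1 of wild type or of E79Q. Dropping the filter on low values tested 16324 genes and raised the calls among collagens from 4 to 7. The stricter filter tested 8300 genes and left 2 calls among the other integrin subunits. Depth limits Itga1, Itgb3 and Itgb8, with 4 to 20 estimated reads a library, and intervals there would cover counting error only.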
